A study of Mus musculus with 9 samples.

Results

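The genes described here are a list of 33 genes of connective tissue stroma, picked by symbol from the 46517 genes of the deposited table, and all 33 were found in it. They encode matrix proteins, the enzymes that fold, cross-link or cut them, growth factor binding proteins, niche ligands, surface receptors and contractile proteins. Counts were sufficient to test 30 of the 33, among 14059 genes tested in all. The 9 RNA sequencing libraries were made from primary cells of wild-type C57BL/6 mice grown in vitro, with 3 libraries each of conventional (cMo), intermediate (intMo) and patrolling (pMo) monocytes, numbered 0, 1 and 2. According to the title of the series, the patrolling cells came from bone marrow grown with OP9-DLL1 cells. OP9 is a mouse stromal line from the skull bone of newborns that lack the growth factor CSF-1, and the DLL1 version was given an added copy of the Notch ligand gene Delta-like 1. No treatment, time or age is labelled, and the labels do not say whether the cMo cells were grown on the same feeder cells, how the subsets were sorted, or whether a subset's 3 libraries are separate cultures or animals. Each p-value is thus set by the spread among these libraries alone, which may be technical.

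Stromal cells such as fibroblasts and marrow reticular cells secrete collagen chains, which wind into triple helices inside the cell and are cross-linked outside it into fibrils, while basement membranes are woven from other collagens. The same cells hold blood precursors in place with CXCL12 and feed them with stem cell factor. Monocytes are not known as major makers of fibrillar collagen, although monocytes and macrophages express several matrix proteases and growth factor binding proteins of their own.

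The list was first set against its name. Dcn, the small proteoglycan decorin that marks many fibroblasts, had 0 counts in all 9 libraries, and Lum, its relative lumican, had 1 count in intMo library 0, 1 in pMo library 0 and 0 elsewhere. A floor of 3 counts lay between 0.0994 and 0.161 CPM (counts scaled to library size) per library, so levels of both below this could not have been seen. Igfbp4, Acta2, Fstl1, Tagln and Mmp14, on the other hand, were the 5 members with the highest means in cMo, and Igfbp4 and Acta2 did not follow the collagens. The 12 monocyte markers fixed for this work summed to between 14168 and 27836 CPM per library, and the 33 stromal genes to between 151 and 1436 CPM. In bulk RNA, fewer cells of a type and less RNA per cell cannot be told apart, and whether a member's reads came from stromal cells or from monocytes was not tested.

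Promoter windows show how the genes that the results turn on are laid out. RefSeq gives windows for 23 of the 33 genes on GRCm38.p6, each running from 250 bases before to 50 after the annotated start. Col4a1 and Col4a2, the 2 chains of the main basement membrane collagen, lie head to head on chromosome 8, and their annotated transcripts overlap by 22 bases. Their windows, chr8:11312777-11313076 on the minus strand and chr8:11312555-11312854 on the plus strand, share 78 bases, which stand in capitals in both and are reverse complements of each other.
Col4a1: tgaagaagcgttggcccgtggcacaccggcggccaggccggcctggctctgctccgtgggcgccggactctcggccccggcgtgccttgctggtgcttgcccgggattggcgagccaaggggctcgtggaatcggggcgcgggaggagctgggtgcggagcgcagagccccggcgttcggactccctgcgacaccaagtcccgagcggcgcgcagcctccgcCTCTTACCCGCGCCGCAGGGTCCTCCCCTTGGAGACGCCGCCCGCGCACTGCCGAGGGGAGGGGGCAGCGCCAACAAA
Col4a2: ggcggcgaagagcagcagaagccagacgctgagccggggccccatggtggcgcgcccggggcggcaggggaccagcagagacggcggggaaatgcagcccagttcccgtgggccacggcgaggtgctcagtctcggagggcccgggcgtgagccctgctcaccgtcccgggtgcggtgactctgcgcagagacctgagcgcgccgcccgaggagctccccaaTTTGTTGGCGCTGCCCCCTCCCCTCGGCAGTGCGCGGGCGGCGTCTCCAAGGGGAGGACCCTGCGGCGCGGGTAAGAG
Col1a2, a chain of the most abundant fibril-forming collagen, and Igfbp4, which moved the opposite way, are shown for contrast (chr6:4505368-4505667 and chr11:99040994-99041293, both plus strand). Capitals mark CCAAT or its complement ATTGG in Col1a2, and TATAAA in Igfbp4.
Col1a2: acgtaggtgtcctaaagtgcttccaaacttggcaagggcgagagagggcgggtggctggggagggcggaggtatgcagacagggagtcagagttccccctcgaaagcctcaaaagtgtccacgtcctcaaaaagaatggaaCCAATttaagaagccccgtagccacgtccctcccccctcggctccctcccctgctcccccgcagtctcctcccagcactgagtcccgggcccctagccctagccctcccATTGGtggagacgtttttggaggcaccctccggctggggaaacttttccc
Igfbp4: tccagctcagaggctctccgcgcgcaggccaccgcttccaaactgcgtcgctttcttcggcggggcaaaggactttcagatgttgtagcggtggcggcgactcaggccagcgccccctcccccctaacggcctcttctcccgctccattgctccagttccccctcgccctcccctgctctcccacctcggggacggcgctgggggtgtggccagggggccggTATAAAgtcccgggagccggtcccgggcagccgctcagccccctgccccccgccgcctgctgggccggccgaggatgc
CCAAT, on either strand, was present in the windows of 8 of the 26 annotated starts of the members and in 37.4% of all 32851 windows. TATAAA (or TTTATA) was present in 4 of 26 and in 13.6% of all windows. These are matches of letters only.

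The first comparison was of intMo with cMo. Of the 30 tested members, 25 were higher in intMo (edgeR adjusted p under 0.05), where 14% of all tested genes were higher, and 1 was lower, against 10.4% of all genes. The median log2 change was 4.92 over the tested members and -0.01 over all tested genes. In pMo against cMo, 25 members were higher and 2 lower, where 17.2% and 15.9% of all genes were, with a median of 4.70 against 0.03. Both comparisons use the same cMo libraries and are not independent of each other. Only 13 of the 30 reached the minimum of the filter (0.369 CPM) in all 3 cMo libraries, against 30 in intMo and 29 in pMo. The others entered the test through the subsets where they are high, so these counts describe the list and do not test it.

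**Figure D1:**
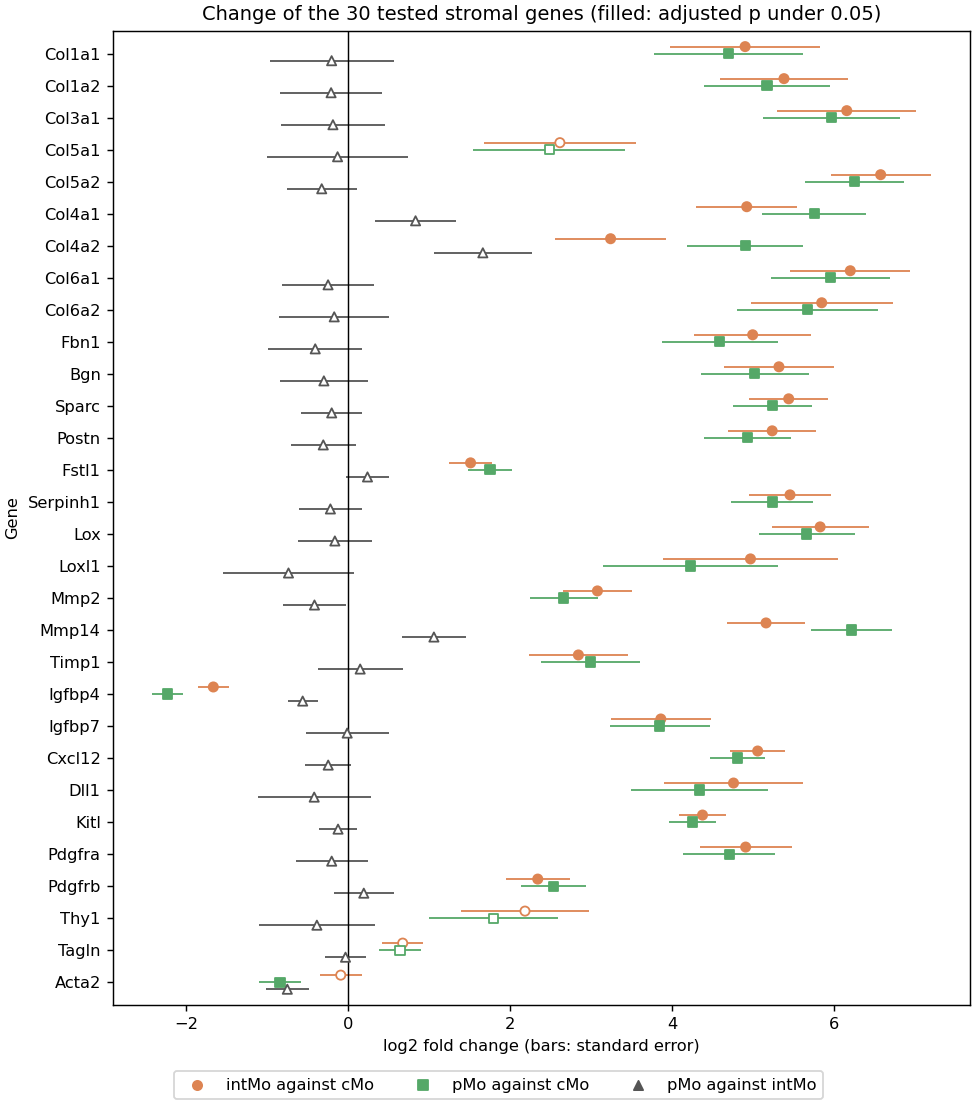
Log2 fold change (horizontal axis, bars are standard errors) of each of the 30 tested genes (vertical axis) for intMo against cMo (circles), pMo against cMo (squares) and pMo against intMo (triangles), filled where the edgeR adjusted p is under 0.05. Most circles and squares lie together between 2 and 7, Igfbp4 lies to the left of 0, and no triangle is filled.

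Summed over all 33 members, the level was 228, 167 and 151 CPM in cMo libraries 0, 1 and 2. It was 1436, 479 and 583 CPM in intMo and 1157, 786 and 693 CPM in pMo. All intMo and pMo libraries lay above all cMo libraries, and in each subset library 0 was the highest. Most of the cMo sum came from 1 gene, since Igfbp4 made up 72.02% to 75.6% of it there and at most 8.06% in any intMo or pMo library. Without the 5 members highest in cMo, a group set by these values, the sums were 21.7 ± 11.7 CPM in cMo, 634 ± 442 in intMo and 571 ± 208 in pMo (mean ± SD, n = 3), or 29.2 and 26.4 times the cMo mean. Without intMo library 0, an alternative chosen after seeing the data, the intMo mean was 379.8 CPM, or 17.5 times that of cMo.

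**Figure D2:**
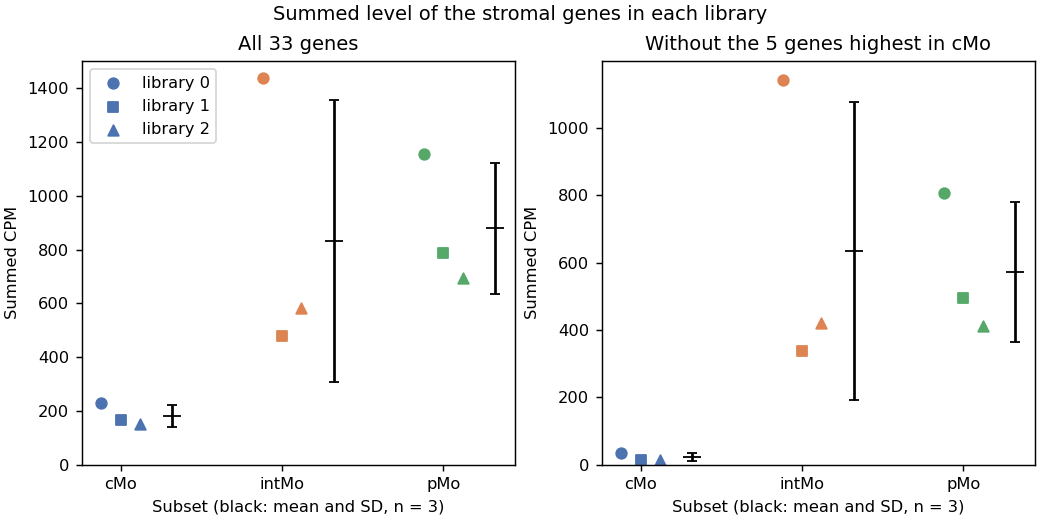
Summed CPM (vertical axis) of all 33 genes (left) and of the 28 that remain without Igfbp4, Fstl1, Acta2, Tagln and Mmp14 (right) in each library, with the mean and SD of the 3 libraries of each subset in black. Library 0 (circle) is the highest of its subset in both panels, and every intMo and pMo library lies above every cMo library.

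Among the fibril-forming collagens, 4 of 5 were higher in intMo and in pMo than in cMo. Col1a1, the major chain of type I collagen (ENSMUSG00000001506.10, chr11:94936224-94953042 on GRCm38, protein coding), was at 3.60, 0.633 and 1.04 CPM in cMo, 110.2 in intMo library 0, 20.5 and 27.6 in the other intMo libraries, and 82.4, 31.0 and 23.9 in pMo. The subsets with high levels did not overlap with cMo, but the libraries numbered 0 stood 3.00 to 4.58 times above the mean of the other 2 of their subset. The log2 change was 4.90 ± 0.93 (SE) in intMo (edgeR adjusted p = 0.00631) and 4.70 ± 0.92 in pMo (edgeR adjusted p = 0.00497). Col3a1, the type III chain of soft tissue, was at 1.48, 0.316 and 0.180 CPM in cMo, 89.9, 24.2 and 27.8 in intMo, and 64.0, 32.1 and 28.3 in pMo. Its log2 changes were 6.16 ± 0.86 (edgeR adjusted p = 0.00142) and 5.97 ± 0.85 (edgeR adjusted p = 0.00109). Col5a2, a type V chain that limits fibril width, had the largest change of the list in intMo, at 6.58 ± 0.62, from a cMo mean of 0.144 CPM to 14.2 CPM. Col1a2 had log2 changes of 5.38 and 5.17.

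Col5a1, the partner chain of Col5a2, was the exception and did not pass the test (log2 2.62 ± 0.94, edgeR adjusted p = 0.0739 in intMo, and 2.49 ± 0.94, edgeR adjusted p = 0.0713 in pMo). Its cMo libraries were at 5.29, 0.668 and 0.324 CPM, so that cMo library 0 was 10.7 times the mean of the other 2. Without cMo library 0 it passed in both comparisons, with log2 changes of 4.68 (edgeR adjusted p = 0.00711) and 4.54 (edgeR adjusted p = 0.00558).

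All 4 basement membrane and beaded collagens were higher in intMo and pMo than in cMo. The type VI chains, which form beaded filaments around cells, were alike. Col6a1 was at 1.30, 0.598 and 0.540 CPM in cMo, 118 in intMo library 0, 26.2 and 35.9 in the others, and 78.1, 39.0 and 34.5 in pMo. Its log2 changes were 6.20 and 5.95, and those of Col6a2 were 5.85 and 5.68. Again no cMo library overlapped, and library 0 was the highest in each subset. Col4a1 was at 0.612, 0.352 and 0.432 CPM in cMo, 26.4, 5.94 and 10.5 in intMo, and 36.5, 21.7 and 17.9 in pMo. Col4a2 was at 1.48, 0.352 and 0.396 CPM in cMo, 12.3, 3.35 and 5.60 in intMo, and 34.8, 16.5 and 15.7 in pMo. Both chains of the head-to-head pair thus had their highest means in pMo, whereas the means of the type VI and fibril-forming chains were highest in intMo. Col4a2 was the only one of the 4 whose pMo libraries all lay above its intMo libraries.

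**Figure D3:**
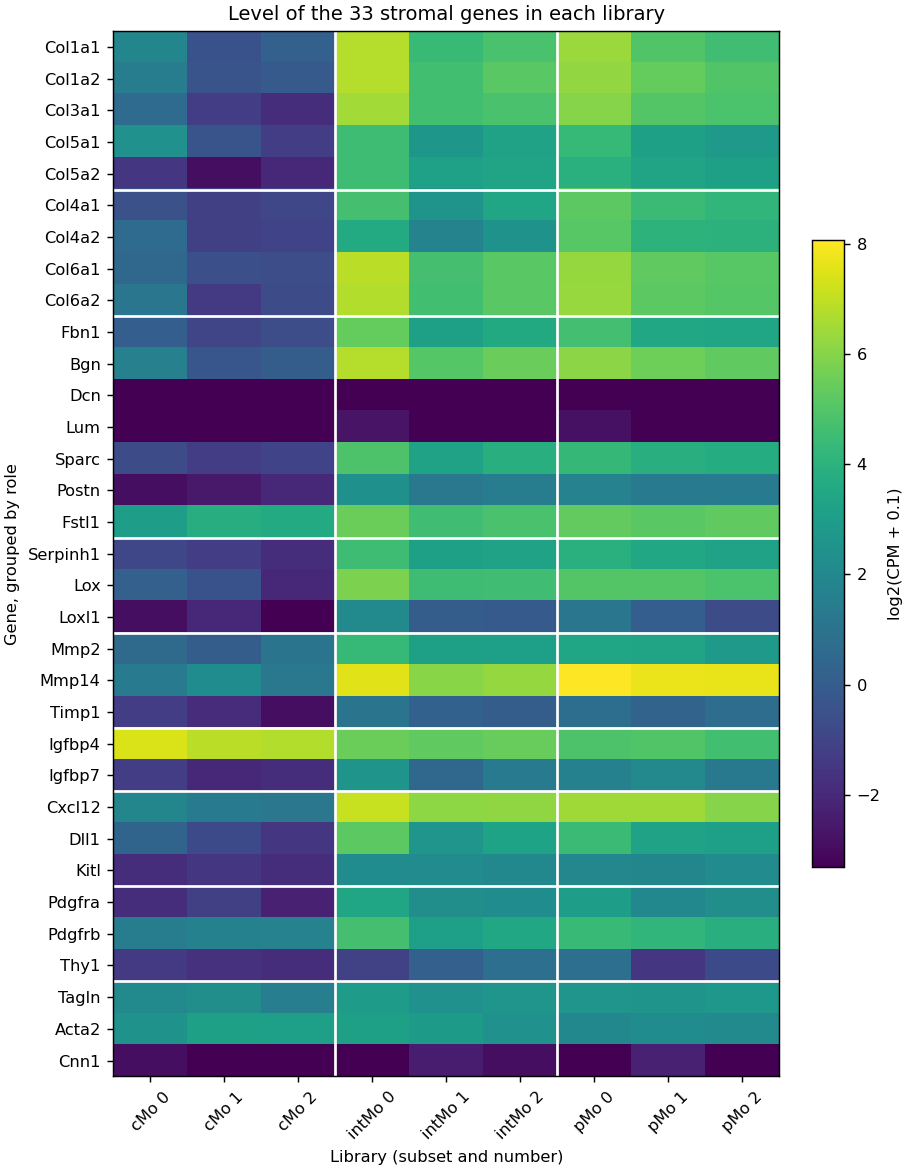
Level of the 33 genes (vertical axis, grouped by role with white lines) in the 9 libraries (horizontal axis), as colour on a scale of log2(CPM + 0.1). The cMo columns are darker than those of intMo and pMo in most rows, with Igfbp4 the brightest row in cMo. Library 0 is brighter than libraries 1 and 2 in most rows of intMo, and Dcn stays at the floor throughout.

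Of the 7 microfibril, proteoglycan and matricellular genes, all 5 that were tested were higher in both subsets. Bgn, the proteoglycan biglycan, was at 1.58 ± 1.29 CPM in cMo, 63.3 ± 42.6 in intMo and 51.3 ± 14.95 in pMo (mean ± SD, n = 3), with log2 changes of 5.32 and 5.02. Fbn1 (fibrillin-1, the core of microfibrils), Sparc (osteonectin, a collagen-binding matricellular protein) and Postn (periostin) had log2 changes of 5.0, 5.44 and 5.24 in intMo and 4.59, 5.24 and 4.93 in pMo. Fstl1, a secreted glycoprotein related to follistatin, differed less. It was at 8.17, 13.7 and 12.4 CPM in cMo, 45.8, 24.1 and 28.04 in intMo, and 40.8, 36.1 and 38.6 in pMo, with log2 changes of 1.51 ± 0.27 (edgeR adjusted p = 0.00428) and 1.75 ± 0.27 (edgeR adjusted p = 0.00147). In cMo, library 0 was the lowest for Fstl1, opposite to the collagens.

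The 3 genes of collagen folding and cross-linking were all higher. Serpinh1, the collagen chaperone HSP47, was at 0.309 ± 0.126 CPM in cMo, 13.8 ± 8.12 in intMo and 11.9 ± 2.74 in pMo, with log2 changes of 5.46 and 5.24. Lox, the lysyl oxidase that cross-links collagen and elastin, had changes of 5.83 and 5.67, and its pMo libraries were close together at 32.2, 32.1 and 28.8 CPM. Loxl1, a related oxidase, was low throughout, with 5 counts over the 3 cMo libraries, 128 over intMo and 91 over pMo. Its log2 changes were 4.97 ± 1.08 (edgeR adjusted p = 0.0107) and 4.23 ± 1.08 (edgeR adjusted p = 0.0155). The second call was lost without cMo library 0 (3.99, edgeR adjusted p = 0.0547).

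Mmp14, a membrane-bound collagenase that also activates pro-MMP2, was the most abundant member in pMo, also per kilobase of exon (38.5 CPM per kb, against 11.5 for Col6a1 and 9.67 for Cxcl12). It was at 2.41, 4.57 and 2.23 CPM in cMo, 186 in intMo library 0, 66.5 and 78.0 in the others, and 269, 212 and 208 in pMo. The 3 subsets did not overlap, and pMo was the highest. The log2 change was 5.16 ± 0.48 in intMo (edgeR adjusted p = 0.000218) and 6.22 ± 0.50 in pMo (edgeR adjusted p = 6.92e-05). Mmp2, the secreted gelatinase, had changes of 3.08 and 2.66, and Timp1, an inhibitor of matrix proteases, of 2.84 and 2.99, with at most 1.98 CPM in any library.

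Igfbp4, which binds insulin-like growth factors, was the main member with the opposite direction. It was at 173, 120.3 and 110.0 CPM in cMo, 45.03, 38.7 and 43.4 in intMo, and 29.99, 31.6 and 24.4 in pMo. The subsets did not overlap, in the order cMo, intMo, pMo. It fell by 1.66 ± 0.19 on the log2 scale in intMo (edgeR adjusted p = 0.000527) and by 2.23 ± 0.19 in pMo (edgeR adjusted p = 8.25e-05). Its spread was small in intMo and pMo, where library 0 was only 1.10 and 1.07 times the other 2. Igfbp7, a secreted relative, was higher in both, with log2 changes of 3.86 and 3.85 at a level of at most 5.84 CPM.

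All 3 niche ligands were higher in intMo and pMo. Cxcl12, the chemokine that retains blood precursors in marrow, was at 3.63, 2.60 and 2.20 CPM in cMo, 138 in intMo library 0, 70.2 and 73.0 in the others, and 86.0, 87.6 and 63.6 in pMo. The log2 changes were 5.06 ± 0.34 (edgeR adjusted p = 4.04e-05) and 4.81 ± 0.34 (edgeR adjusted p = 2.86e-05). Kitl, stem cell factor, was at 0.180, 0.246 and 0.180 CPM in cMo, 4.61, 4.41 and 3.88 in intMo, and 3.74, 3.68 and 4.41 in pMo. It was low but even within each subset, with log2 changes of 4.38 ± 0.29 (edgeR adjusted p = 3.77e-05) and 4.25 ± 0.29 (edgeR adjusted p = 2.26e-05). Dll1, the Notch ligand that names the feeder line, was at 1.19, 0.492 and 0.252 CPM in cMo, 37.0 in intMo library 0, 6.03 and 9.81 in the others, and 21.5, 9.28 and 8.61 in pMo. Its changes were 4.76 ± 0.86 (edgeR adjusted p = 0.00495) and 4.34 ± 0.85 (edgeR adjusted p = 0.0048). Reads of an added copy and of the cell's own gene cannot be told apart, and 20.6% of the exon bases of Dll1 lie opposite another annotated gene.

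Among the surface receptors, Pdgfra and Pdgfrb, the platelet-derived growth factor receptors of mesenchymal cells, were higher in intMo (log2 4.91 and 2.34) and in pMo (log2 4.71 and 2.54). Thy1, a surface glycoprotein of fibroblasts and T cells, did not pass (log2 2.18 ± 0.79, edgeR adjusted p = 0.0731, and 1.80 ± 0.79, edgeR adjusted p = 0.113). It was at 0.288, 0.211 and 0.180 CPM in cMo, 0.375, 1.02 and 1.69 in intMo, and 1.68, 0.245 and 0.481 in pMo. Its intMo library 0 was the lowest of that subset, unlike for the collagens. Its pMo library 0 was the highest of its own, as for the collagens.

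Of the 3 smooth muscle contractile genes, none passed the test as higher and 1 was not tested. Acta2, smooth muscle actin, was at 5.51, 8.82 and 8.46 CPM in cMo, 8.79, 7.34 and 5.30 in intMo, and 3.90, 4.52 and 4.28 in pMo. It did not pass in intMo (log2 -0.09 ± 0.26, edgeR adjusted p = 0.831) and fell by 0.84 ± 0.26 on the log2 scale in pMo (edgeR adjusted p = 0.0349). That call was lost on leaving out any 1 of cMo libraries 1 and 2, intMo library 1 and the 3 pMo libraries, with edgeR adjusted p up to 0.0999. Reads of the near-identical actin genes may be split among copies. Tagln, the actin-binding protein SM22, had log2 values of 0.67 and 0.64 that did not pass (edgeR adjusted p = 0.0865 and 0.084). Its libraries did not overlap with cMo, at up to 4.78 CPM in cMo and at least 5.26 in intMo and 5.92 in pMo. Of its exon bases, 67.9% lie opposite other genes (Pcsk7 and Gm48529). Cnn1, calponin, had between 0 and 3 counts per library and was not tested.

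The libraries numbered 0 stood apart for most members. Against the mean of libraries 1 and 2, library 0 was higher for 29 of 30 tested members in intMo (median ratio 2.56), for 26 in pMo (median 1.5) and for 21 in cMo (median 1.65). The share of all tested genes higher in library 0 was not counted, so these counts describe the members without a background. In intMo the ratio ran from 0.277 for Thy1 to 4.93 for Loxl1, with Dll1 at 4.68, Col1a1 at 4.58, Fbn1 at 3.91 and Col6a1 at 3.81. Mmp14 lay near the median at 2.58, and Cxcl12 and Kitl lay below it at 1.93 and 1.11. Without intMo library 0, the fold of 14 called members in intMo against cMo moved by over 1.5 times, and all 14 became smaller. Col1a1, for example, was then at log2 3.79, Dll1 at 3.62 and Loxl1 at 3.79. Without cMo library 0, the fold of 10 called members moved by as much in both comparisons, all upward, for instance to log2 5.97 and 5.76 for Col1a1 and 7.54 and 7.35 for Col3a1. Without pMo library 0, Col1a1 and Loxl1 moved to log2 3.98 and 3.54 in pMo. Of the remaining libraries, cMo library 1 moved Loxl1 (to 6.45 and 5.72) and cMo library 2 moved Postn (to 5.84 and 5.53).

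With libraries 1 and 2 alone, 27 members were higher and 1 lower in intMo (15.8% and 11.9% of all genes), and 26 were higher and 2 lower in pMo (19.7% and 18% of all genes), each against cMo. The additional calls were Col5a1 in both and Thy1 in intMo. Granulocyte and progenitor markers summed to 4458 CPM in cMo library 0 and to 1102.5 and 1104 in the other cMo libraries, and monocyte markers to 14168 CPM against 23294 and 27836. Much of the monocyte sum was Lyz2, at 7506, 13371 and 17724 CPM in cMo libraries 0, 1 and 2. Most other monocyte markers were also lower in library 0, but Spi1 was not (451 CPM against 413 and 421). In intMo, the same granulocyte and progenitor markers were at 99.4 CPM in library 0 and at 386 and 397 in the others. Their part in the ratios of the members was not tested.

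**Figure D4:**
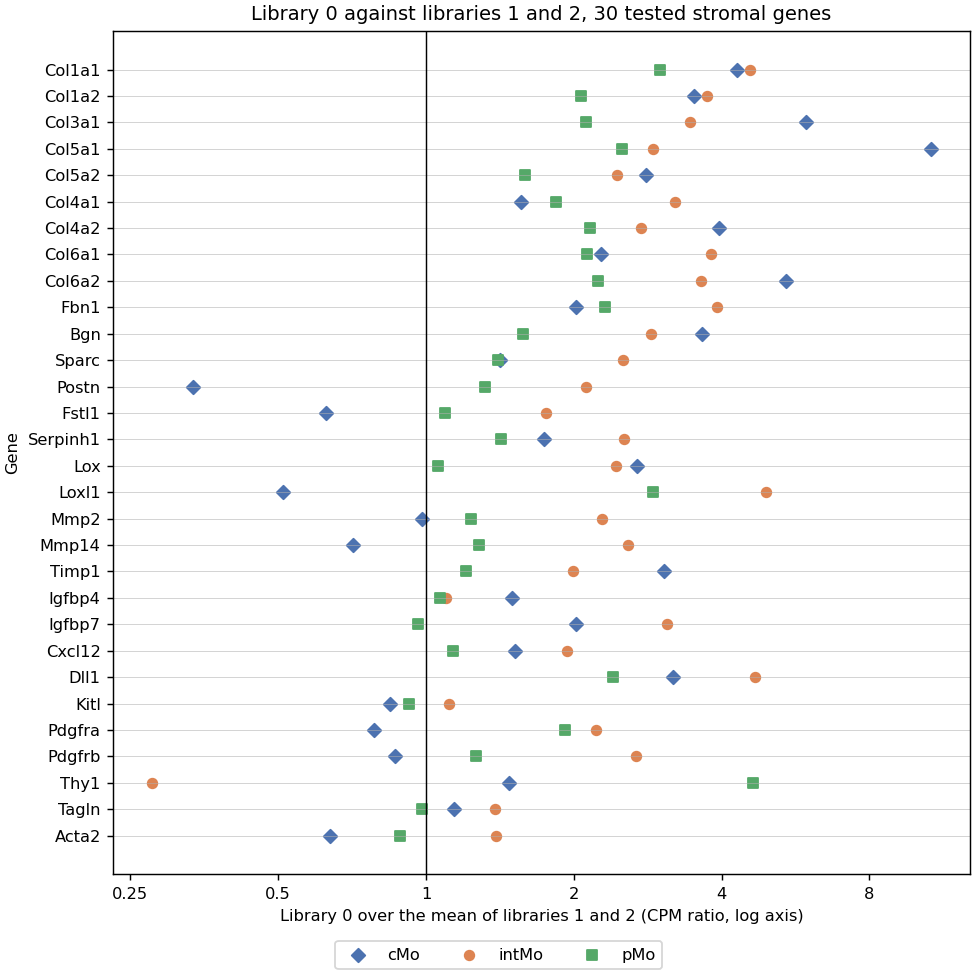
CPM of library 0 divided by the mean of libraries 1 and 2 (horizontal log axis) for the 30 tested genes (vertical axis) in cMo (diamonds), intMo (circles) and pMo (squares). Of the circles 29 lie right of 1, with Loxl1, Dll1 and Col1a1 farthest, while Kitl and Igfbp4 lie near 1 and Thy1 lies at 0.277.

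The last comparison was of pMo with intMo. None of the 30 tested members passed the edgeR test, where 3.29% of all genes were higher and 1.69% lower. The log2 changes ran from -0.75 to 1.66 with a median of -0.20 (all genes -0.02), and 24 of the 30 were below 0. At an unadjusted edgeR p under 0.05, Col4a2 and Mmp14 were higher and Igfbp4 and Acta2 lower in pMo. These 4 were also the members whose libraries did not overlap. The share of all tested genes that met either measure was not counted, so the 4 are described and not set apart from the background. DESeq2 called 1 member higher, Col4a2, where 5.03% of all genes were higher and 4.15% lower.

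Col4a2 had a log2 difference of 1.66 ± 0.60 (edgeR adjusted p = 0.175), and Mmp14 of 1.06 ± 0.40 (edgeR adjusted p = 0.19). Those of Igfbp4 and Acta2 were -0.56 ± 0.19 (edgeR adjusted p = 0.134) and -0.75 ± 0.26 (edgeR adjusted p = 0.157). With the replicate number as a block, Col4a2 passed (log2 1.76, edgeR adjusted p = 0.00776) as the only member, with 3.61% of all genes higher and 2.34% lower. By their correlations, intMo and pMo libraries were paired by number for library 0 only, which limits both blocked fits. In a blocked fit of the intMo and pMo libraries alone, an alternative chosen after seeing the data, Col4a2 (1.72, edgeR adjusted p = 0.000306) and Mmp14 (1.19, edgeR adjusted p = 0.0222) were higher, and Igfbp4 (-0.58, edgeR adjusted p = 0.0129) and Acta2 (-0.74, edgeR adjusted p = 0.0449) were lower. In that fit 9.13% of all genes were higher and 9.99% lower, so the share of members called was near the background. Without intMo library 0, Mmp14 passed at log2 1.67 (edgeR adjusted p = 0.014) and Col4a1 passed too, and without cMo library 0 Igfbp4 passed at -0.56 (edgeR adjusted p = 0.0354). With libraries 1 and 2 alone, Col4a1, Col4a2, Fstl1, Mmp14 and Pdgfrb were higher and Igfbp4 and Thy1 lower, where 7.43% and 9.67% of all genes were.

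Since the collagens shared the spread of library 0, each member was also divided by the summed CPM of the 5 fibril-forming collagens in the same library. Over the 6 intMo and pMo libraries, the ratio of Col6a1 was the steadiest, from 0.310 to 0.330 in intMo and from 0.304 to 0.348 in pMo (SD of its log2 0.071). Col6a2 and Fbn1 were also steady, with SDs of 0.082 and 0.12, and Dll1 had 0.19. By this measure 3 genes were higher in all pMo than in all intMo libraries. The ratio of Col4a2 was 0.0342 to 0.0506 in intMo and 0.133 to 0.158 in pMo, or 3.47 times higher on average. That of Col4a1 was 0.0702 to 0.0949 and 0.142 to 0.181, or 2.09 times higher, and that of Mmp14 was 0.519 to 0.787 and 1.05 to 2.10, or 2.36 times higher. For each other tested member the ranges overlapped. These ratios are a description without a test, and the collagens in the divisor are members themselves. The share of all tested genes that separate in this way was not counted, so the 3 genes are not set apart from the background.

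**Figure D5:**
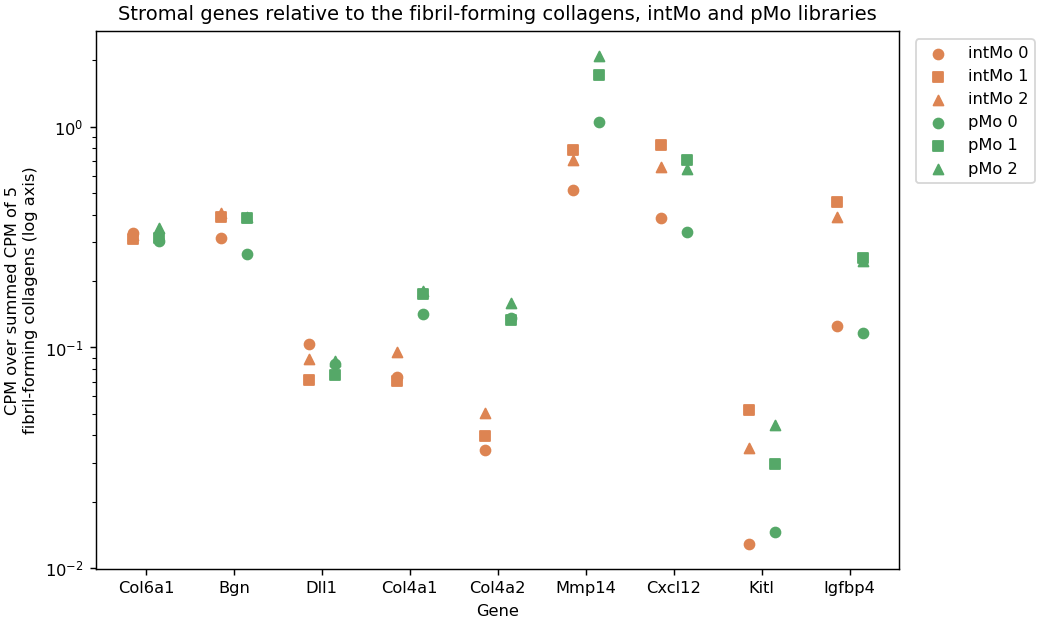
CPM of 9 genes (horizontal axis) divided by the summed CPM of the 5 fibril-forming collagens (vertical log axis) in the intMo (left of each pair) and pMo (right) libraries 0 (circles), 1 (squares) and 2 (triangles). Col6a1 lies between 0.304 and 0.348 in all 6 libraries, the pMo points of Col4a1, Col4a2 and Mmp14 lie above all their intMo points, and library 0 is lowest for Cxcl12, Kitl and Igfbp4.

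Other genes of the same biology were taken from lists. Of all tested genes, 14% were higher and 10.4% lower in intMo, and 17.2% and 15.9% in pMo, than in cMo. Many listed genes low in cMo entered the test through the subsets where they are high, so the counts describe the lists without testing them. Of 42 tested matrix genes that are not members, 31 were higher and 4 lower in intMo, and 30 higher and 5 lower in pMo, than in cMo, with median log2 changes of 3.29 and 3.14. Among those higher were Mmp13, a collagenase (log2 6.92 and 5.47), and Lama4, a laminin chain with 0 counts in cMo (at least 13.9-fold and 15.9-fold higher, taking 3 counts per subset as the floor). Among those lower was Fn1, fibronectin, which fell by 3.18 and 3.36 on the log2 scale and is also on the monocyte and macrophage list below. Between pMo and intMo, 1 of the 42 passed, Loxl3 (log2 1.09, edgeR adjusted p = 0.032), where 3.29% of all genes were higher. Of 14 matrix genes that monocytes and macrophages make, 5 were higher and 4 lower in intMo, and 5 higher and 6 lower in pMo, with medians of -0.39 and -0.22. Fn1, Thbs1, Timp2 and Vcan are on both lists, so their calls are counted in each.

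Of 11 other contractile and membrane genes of mesenchymal cells, 8 were higher in each subset and the other 3 did not pass, with medians of 2.70 and 2.37. The shares of all tested genes that were higher were 14% in intMo and 17.2% in pMo. Flnc, a muscle filamin, had changes of 5.61 and 5.37, and Myl9, a myosin light chain, of 5.18 and 4.87. Their cMo means were 0.0597 and 0.0480 CPM. Of 16 mesenchymal transcription factors, 7 were tested, of which 6 were higher in intMo and 5 in pMo. Among them was Foxc1 (5.26 and 4.97, from a cMo mean of 0.0957 CPM). Osr1, also higher in both, had 0 counts in cMo (at least 27.9-fold and 30.3-fold higher, same floor). Foxc1 and Osr1 entered the test through intMo and pMo. Of 7 Notch receptors and targets, 5 were higher in both subsets, with Hes1, a target gene of Notch, at 5.48 and 5.5. Notch1, a receptor, was lower in pMo, by log2 values of -1.81 against cMo and -1.32 against intMo (edgeR adjusted p = 0.00186 and 0.0331). Of the receptors for the niche ligands, Ackr3, a scavenger of CXCL12, was higher (4.61 and 4.85), from a cMo mean of 0.0237 CPM. Cxcr4, the signalling receptor of CXCL12, fell by 0.90 in intMo. The cMo means of Flnc, Myl9, Foxc1 and Ackr3 lay below the floor of 3 counts per library, so these changes are uncertain in size.

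Some markers of other cell types moved too, where 14% of all genes were higher and 10.4% lower in intMo, and 17.2% and 15.9% in pMo. None of 3 tested megakaryocyte and platelet markers passed, and no erythroid marker was tested. Of 5 tested lymphoid markers, 2 were higher in intMo and 1 in pMo. The 1 tested epithelial marker was higher in intMo only. Of 12 monocyte markers, 4 were higher and 3 lower in intMo, and 7 higher and 3 lower in pMo. Of 6 granulocyte and progenitor markers, 5 were lower in each subset than in cMo, and their sum was 2221 ± 1937 CPM (SD, n = 3) in cMo, 294 ± 169 in intMo and 97.9 ± 4.59 in pMo. In cMo it ran from 1102.5 to 4458 CPM, with library 0 the highest. Of 5 tested osteoblast and cartilage markers, 3 were higher in intMo and 5 in pMo, and their list summed to 146 ± 52.8 CPM in cMo, 136 ± 6.95 in intMo and 548 ± 104 in pMo. Among them, Col2a1, the cartilage collagen, had log2 changes of 4.68 and 4.48, and Spp1, osteopontin, which macrophages also make, had 1.89 in pMo. Most of the pMo sum was Spp1, with means of 115, 61.2 and 427 CPM in cMo, intMo and pMo. Sp7, Ibsp and Bglap had means of at most 0.0591 CPM. Acan, the cartilage proteoglycan, Plin1 of fat cells and Cldn5 of endothelium had 0 counts in all 9 libraries. Of 6 tested endothelial markers, 3 were higher and 1 lower in intMo, with the same counts in pMo. Summed endothelial markers ran from 10.5 to 15.8 CPM in cMo, 20.2 to 22.9 in intMo and 27.0 to 37.2 in pMo. Of 5 tested adipocyte markers, 2 were higher in intMo and 3 in pMo, and the summed list ran from 21.5 to 55.6 CPM in cMo, 56.6 to 82.6 in intMo and 252 to 543 in pMo. Nearly all of this sum was Lpl, with means of 40.8, 68.8 and 422 CPM in cMo, intMo and pMo. Adipoq, Cidec and Cfd had means of at most 0.191 CPM. The part of these markers in the changes of the stromal genes was not tested.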

How the data were processed

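RNA was extracted with RNAzol and made into stranded mRNA libraries, per the labels' protocols. The authors deposited estimated counts per gene, 1 column per library, made with kallisto 0.46.1 and mm10 per the submitters' processing notes. Not given in the sources used here are the transcript annotation, how transcripts were summed to genes, filters and strandedness of the counting, so genes that overlap others are uncertain. Between 25.6% and 27.5% of values per library were not whole, and values were rounded before testing. Totals ran from 18455008 to 29985563 counts per library. Of the 46517 gene IDs, 46005 matched a symbol of GENCODE M21 (GRCm38) and 512 did not. The labels name no molecular identifiers, so reads are not independent molecules and floors cover counting error only.

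Genes were kept with filterByExpr by subset, which asks for 0.369 CPM in at least 3 libraries, and scaled by TMM. All 9 libraries went into 1 edgeR fit (version 4.0.16, R 4.3.3, subset as factor, robust quasi-likelihood F test), with Benjamini-Hochberg adjustment over every tested gene and a threshold of 0.05. DESeq2 1.42.0 was an alternative. CPM are counts over the TMM-scaled library size. The steps were tested on simulated data. The text gives all 33 members, by role, and from some of the other lists a few called genes, which are not always those with the largest changes. The members, lists and tests were chosen with earlier results of these data known. Promoter windows are those of RefSeq on GRCm38.p6.

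The labels number the libraries 0 to 2 in each subset without saying that a number is shared. Deviations from the subset means correlated at 0.588, 0.3 and 0.274 between intMo and pMo libraries of the same number. However, intMo library 1 and pMo library 2 correlated at 0.403, and intMo library 2 and pMo library 1 at 0.279. The values thus pair library 0 by its number but not libraries 1 and 2. The main fit has no block, and the blocked fits take all numbers as pairs. With cMo the same-numbered correlations ran from -0.143 to 0.0657 (intMo) and from -0.0156 to 0.23 (pMo), which was not taken as a pairing. Alternatives were RLE and upper quartile scaling, 2 other filters on low counts, DESeq2, a fit of only the subsets compared, the replicate block, leaving out each library, and libraries 1 and 2 alone.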

Additional observations from a re-analysis of the deposited data

How the results depend on the processing

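Of 30 tested members, 500 of 509 log2 changes under the 17 alternatives kept their direction and side of the threshold for intMo against cMo, and 498 of 508 for pMo against cMo. The members called higher numbered 24 to 27 and 24 to 26. The change of Acta2 in intMo was 0.03 without cMo library 1 and 0.086 without intMo library 2, in place of -0.09, and ran from -0.28 to 0.086 on leaving out 1 library. The cause was not tested. Members lower in pMo than in cMo numbered 1 to 2 on leaving out 1 library. For pMo against intMo, members called higher numbered 1 with DESeq2, 1 with the replicate block, 2 with the block in the intMo and pMo libraries only, 0 to 2 on leaving out 1 library and 5 with libraries 1 and 2 alone, in place of 0. Those called lower numbered 2, with that restricted block and with libraries 1 and 2 alone, and 0 to 1 on leaving out 1 library. The replicate block also called Col5a1 higher against cMo (log2 3.11 in intMo and 3.03 in pMo) and changed no other call against cMo, where the samples share only a number. Over all genes, calls of pMo against intMo numbered 463 higher and 238 lower, 741 and 611 with DESeq2, 1053 and 1371 with libraries 1 and 2 alone and 1236 and 1353 with the restricted block. Without the 5 members highest in cMo, the summed mean was 21.7 CPM in cMo, 634 in intMo and 571 in pMo, in place of 182, 833 and 879. Depth limits Loxl1, Timp1 and Thy1, which had 224, 214 and 160 counts over all libraries, and Dcn, Lum and Cnn1, which were not tested. It also limits the size of the changes of Postn, which had 7 counts over the cMo libraries.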

Other observations

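The log2 CPM of each tested gene was correlated over the 9 libraries with the log2 of the summed CPM of the 33 stromal genes. Of 10680 named genes outside the list with a mean of at least 2 CPM, 122 had Pearson's r over 0.95, a description over libraries that share subsets and depth. The 10 closest held 2 matrix genes, Hspg2 (perlecan of basement membranes, r = 0.986) and Svep1 (a large secreted adhesion protein, r = 0.985). The others were Arhgef2 (r = 0.994), Dhx34, Rogdi, Fermt3, Mif4gd, Clip2, Ppp1r12c and Ets2. Fermt3, kindlin-3, is the kindlin of blood cells and was at 424 ± 21.3 CPM in cMo, 567 ± 45.4 in intMo and 566 ± 19.1 in pMo (mean ± SD, n = 3). Hspg2 was at 0.120 ± 0.208, 9.37 ± 10.2 and 8.42 ± 5.35 CPM. Within the list, Dll1 followed the sum most closely (r = 0.988), although it made up little of it. Igfbp4 (r = -0.83), Acta2 (r = -0.46) and Thy1 (r = 0.53) followed it least.

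Per kilobase of exon, the order of the members differed between subsets. In cMo, Igfbp4 stood at 30.4 CPM per kb, followed by Acta2 at 3.46, Fstl1 at 2.33 and Tagln at 2.0. In pMo, Mmp14 stood at 38.5, followed by Col6a1 at 11.5, Cxcl12 at 9.67, Bgn at 8.42 and Fstl1 at 7.84. Mmp14 made up 23.3% to 29.96% of the summed CPM of the members in pMo, 12.97% to 13.9% in intMo and 1.06% to 2.74% in cMo.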
